A study of Setaria viridis with 40 samples.

Results

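The first hour of the experiment in unstressed leaves of *Setaria viridis* ME034, a C4 grass, was examined by comparing ctrl_1h with ctrl_0h across all genes. The 8 libraries were chosen by their labels, 4 of ctrl_0h and 4 of ctrl_1h, among the 40 of the series, which covers 10 conditions with 4 biological replicates each (A to D). All 8 came from plants of the same accession, 13 days old, grown at 31 °C under 250 µmol photons m−2 s−1 with a photoperiod of 12 h. ctrl_0h leaves were collected when the treatments of the other plants began, 4 h after the lights came on. ctrl_1h leaves were collected 1 h later from plants that had stayed in the growth chamber, so no agent, allele or change of light or temperature separates the groups. By design they differ in 1 h of the day. Depth, index codes and single libraries, described below, differ between the groups as well and cannot be told apart from that hour. A replicate held 2-cm pieces from the middle of leaf 4, pooled from 2 plants. These were whole leaf pieces, so fewer cells of a type and less RNA per cell cannot be told apart in any value below.

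Many plant transcripts rise and fall within the day, driven by light and by the circadian clock. In Arabidopsis the clock passes from MYB factors of the CCA1 and REVEILLE family in the morning to pseudo-response regulators such as PRR7 during the day, and cycling DOF factors, repressors of flowering genes, belong to its morning output. In a C4 leaf the mesophyll fixes CO2 with carbonic anhydrase and PEP carboxylase, and the bundle sheath holds Rubisco and the Calvin-Benson cycle. The study used a control at each time point so that treated leaves could be compared with leaves of the same hour, and the comparison here asks which transcripts moved in that hour without any treatment.

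Transcripts were read as tags at their 3′ end, and levels are given as CPM, the count of a gene over the library total scaled to 1e6, which needs no gene length. Total counts were between 1422507 and 3556205 at ctrl_0h (median 2454168) and between 2596369 and 3634011 at ctrl_1h (median 3436118). The count table lists 38239 genes, of which 13255 had no count in any column used. The 14293 that reached 10 counts in 4 or more libraries entered the test. Counts were compared with edgeR's quasi-likelihood test in 1 fit over the 39 libraries whose condition is certain, and a gene was called at a Benjamini-Hochberg adjusted p under 0.05. All adjusted p-values below come from this edgeR fit unless another setting is named, and each fold change is followed by its standard error (SE), with n = 4 libraries a group.

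2 features of the libraries touch every result. First, ctrl_0h C and D, with 1422507 and 1835391 counts the shallowest of the 8, differed little from each other. Their chi-square per degree of freedom was 1.42, against 6.14 to 17.8 for the other pairs of ctrl_0h and 12.2 to 28.2 for the pairs of ctrl_1h, and the lowest pair of any other condition had 3.56. For the 11 other pairs the mean chi-square per gene rose from between 1.87 and 3.79 in genes with 10 to 99 summed counts to between 425 and 1890 in genes with 10000 or more, whereas for C and D it was 1.43 in the former genes and 1.55 in the latter. Both carry different first index codes in the labels and the value was above 1.1, the limit set for treating 2 libraries as 1. They were therefore kept as 2 libraries, and a further fit had their counts summed into 1 library. Whether C and D come from separate plants was not tested. Each SE and p-value with n = 4 takes them as independent and would be too small if they are not.

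**Figure D1:**
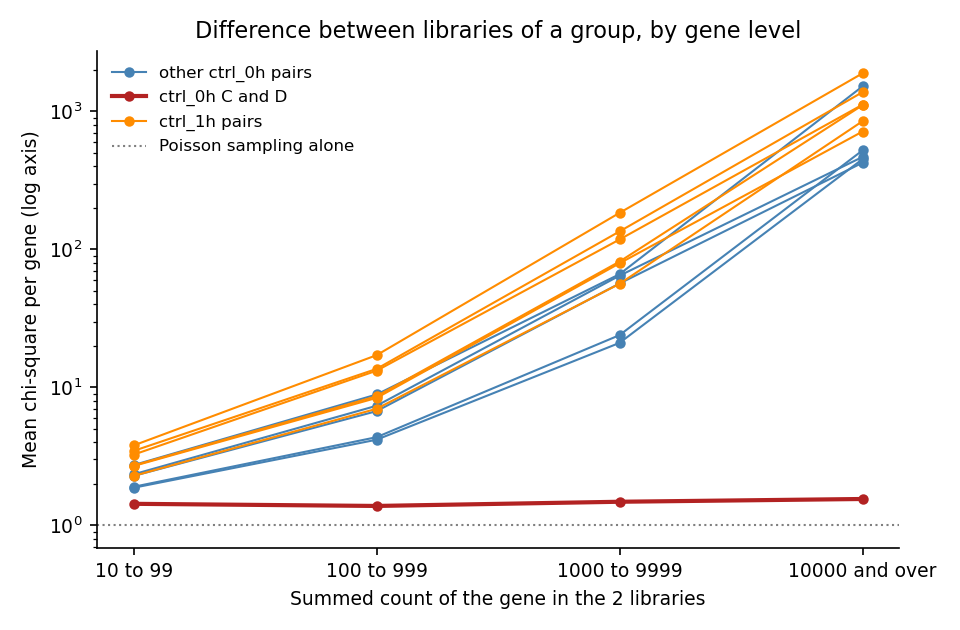
Mean chi-square per gene between 2 libraries of the same group (log axis) against the summed count of the gene in the pair, 1 line for each of the 12 pairs, with a dotted line at the value that Poisson sampling alone gives. The line of ctrl_0h C and D stays between 1.38 and 1.55, while the 11 other lines climb to 425 or more.

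Second, ctrl_1h D stood apart from its group. Its mean distance to the other ctrl_1h libraries, as the median absolute log2 difference in CPM, was 0.498, against 0.399 to 0.419 for A, B and C, and its TMM scaling factor was 0.812, against 0.929 to 0.995 in the other 7 libraries. It was nevertheless closer to ctrl_1h than to any other condition, with 0.538 to HT_1h as the next. B was also nearest to ctrl_1h, whereas A was nearest to ctrl_2h (0.408, against 0.419 to both ctrl_0h and ctrl_1h), and so was C (0.346, against 0.410 to ctrl_0h and 0.412 to ctrl_1h). The 10 most abundant genes of ctrl_1h D took 17.5% of the counts, against 14.1 to 15.8% in the others. The part of this library in the results was measured by leaving it out.

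Within that hour 561 genes (3.92% of those tested) were higher and 296 (2.07%) were lower at ctrl_1h, together 6.00%. At least 2-fold changes made up 321 of the rises and 133 of the falls, and at least 4-fold changes 89 and 20. The median log2 fold change was 1.09 among the genes called higher, −0.95 among those called lower and 0.04 over all genes tested. CPM of the 2 groups did not overlap for 373 of the genes called higher and 241 of those called lower. At an unadjusted p under 0.05, 12.7% of the tested genes were higher and 8.48% lower. Over all genes tested, 4.51% lay wholly higher and 5.63% wholly lower at ctrl_1h. With library totals in place of TMM factors the median of all genes moved from 0.04 to −0.07 and the calls became 349 higher and 325 lower, so that the share of higher calls fell from 65.5% to 51.8%. With limma on log2(TPM + 1) it was 48.8%, yet all 857 called genes kept their sign under both settings.

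**Figure D2:**
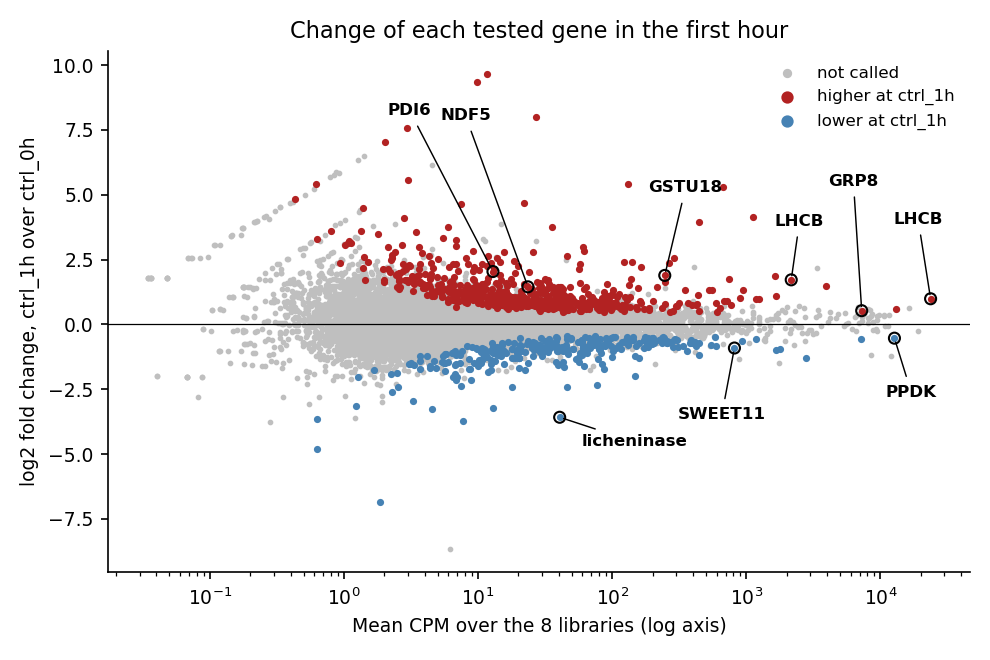
log2 fold change of ctrl_1h over ctrl_0h against mean CPM over the 8 libraries (log axis), 1 point for each of the 14293 genes tested, with the 561 called higher in red, the 296 called lower in blue and 9 genes of the text ringed. Calls among abundant genes were smaller in size than among rare ones, and the diagonal streaks at the upper left are genes with no count in 1 of the groups.

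These counts rested strongly on the libraries described above. With ctrl_0h C and D summed, 339 genes were higher (2.37%) and 165 lower (1.15%), and 338 and 163 of these were called with all libraries. Without ctrl_1h D, 167 were higher (1.17%) and 82 lower (0.574%). Under both changes 63 were higher (0.441%) and 23 lower (0.161%), all of them called with all libraries. Without ctrl_0h C and D, 70 were higher and 36 lower, and without these and ctrl_1h D 31 were higher (0.217%) and 10 lower (0.0700%). Leaving out ctrl_0h C alone gave 277 and 133 and D alone 253 and 126, and leaving out ctrl_0h A gave 351 and 221, whereas without any of the other 4 libraries at least 526 were higher and 286 lower. Among the genes called higher, the median log2 difference from the ctrl_0h mean was 0.86 in ctrl_1h A, 0.87 in B, 0.70 in C and 1.15 in D, and among those called lower −0.90, −0.84, −0.79 and −1.63. The genes were called on these same libraries, so the sign in the first 3 follows in part from the choice and is no separate support. D was the highest of the 8 libraries in 54.9% of the genes called higher (14% of all tested). It was the lowest in 74.7% of those called lower (29.4% of all tested). With the spread estimated from the 8 libraries alone, 187 genes were higher and 79 lower, and 46 of the 101 named genes that were called kept the call, PRR7 (adjusted p = 0.0933), HEMC (0.0656) and 2C9B (0.0588) among those that did not. A set of 150 genes higher and 75 lower was called with all libraries, with C and D summed and without ctrl_1h D alike. Genes of that set are said below to be called in all 3 fits.

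**Figure D3:**
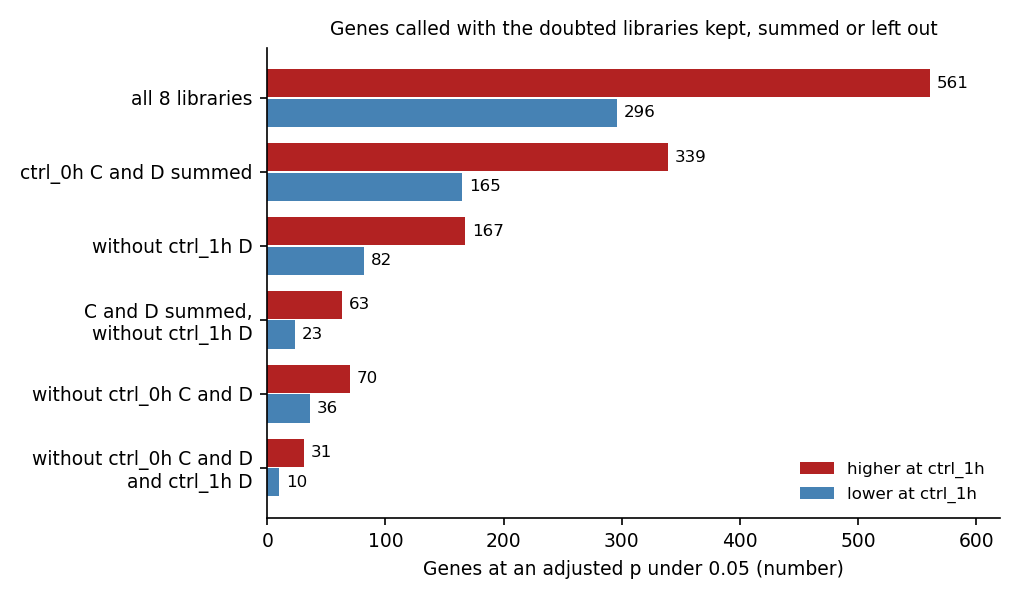
Number of genes called higher (red) and lower (blue) at ctrl_1h with the 8 libraries as they are, with ctrl_0h C and D summed, and with ctrl_1h D or ctrl_0h C and D or all 3 left out. The calls fall from 561 and 296 with all libraries to 31 and 10 without the 3.

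The labels also give each library a second index code. ctrl_0h B and ctrl_1h B and D carry AK10751, and the other 5 carry AK2941. Among these 5 alone, 134 genes were higher and 48 lower. The AK10751 libraries hold a single one of ctrl_0h and gave no value of their own.

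By the rule given under the processing, the 10 largest rises and falls were picked among called genes whose groups do not overlap in CPM. The absence of overlap is thus no finding for them. Mean levels were 6.16 to 2103 CPM at ctrl_1h among the 10 rises and 8.28 to 237 CPM at ctrl_0h among the 10 falls. Of these genes, 9 of the 10 rises and 8 of the 10 falls carry no description in the tables used here. Sevir.9G136501 had no count in any ctrl_0h library and 5.78, 21.5, 7.20 and 44.7 CPM in ctrl_1h A to D, at least 14.2-fold higher when each ctrl_0h library is taken at 3 counts (adjusted p = 0.00726). Sevir.9G109000 rose from 2.81, 14, 4.92 and 4.36 CPM to 141, 210, 221 and 456 CPM (log2 fold change 5.40, SE 1.11, adjusted p = 0.00367). Both genes were called in all 3 fits but not with C and D summed and ctrl_1h D left out at once.

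The rise with a description among the 10 was Sevir.7G187000, a sphingolipid delta-4 desaturase, an enzyme that places a double bond in the backbone of sphingolipids. It had 1.41, 1.95, 0 and 0 CPM at ctrl_0h and between 3.74 and 19.0 CPM at ctrl_1h (log2 fold change 3.32, SE 0.71, adjusted p = 0.00448). The absence of overlap was required by the rule of choice, and the counts behind the ctrl_0h values are few.

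The largest fall was that of a licheninase, Sevir.3G270500, of the enzymes that cut the mixed-linkage glucan of grass cell walls. Its level was 47.2, 48.5, 104 and 102 CPM in ctrl_0h A to D and 2.48, 5.59, 8.93 and 6.16 CPM in ctrl_1h A to D (11.9-fold lower, log2 fold change −3.58, SE 0.64, adjusted p = 0.000928). Its groups could not overlap, since the 10 falls were picked without overlap. Sevir.1G044000, described as SPX1, a phosphate-sensing repressor of the phosphate starvation response in Arabidopsis and rice, fell by 2.16 on the log2 scale (SE 0.50, adjusted p = 0.00808), from 9.76 to 17.6 CPM at ctrl_0h to 4.9 CPM or less at ctrl_1h, with no count in D. Both were called in all 3 fits.

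The licheninase was called under 25 of 26 alternatives. Genes without a description fell too. Sevir.6G202600 had 189.8, 127, 103 and 101 CPM at ctrl_0h and 12.9, 25.0, 46.4 and 13.1 CPM at ctrl_1h (log2 fold change −2.33, SE 0.28, adjusted p = 6.78e-06), and its median went on to 27.2 CPM at ctrl_2h and 7.65 CPM at ctrl_4h. It was called under all alternatives tried, with a highest adjusted p of 0.0112. Sevir.5G132900 fell from between 7.48 and 14.7 CPM to between 0.826 and 5.39 CPM (log2 fold change −2.13, SE 0.49, adjusted p = 0.00744), and was called without ctrl_0h C and D and ctrl_1h D too.

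Lists of genes were taken from the pathway table of the study, of which 612 genes were tested, and from keywords in gene descriptions, which exist here for 3241 tested genes. Of the former, 5.07% were called higher and 4.58% lower, and of the latter 6.48% and 3.58%. No list below was tested against these shares, so a count of called members is not by itself a result about its list. Most descriptions belong to genes that the study called in high light or high temperature with ctrl_1h as the control at 1 h, so the keyword lists are not independent of these libraries.

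Of 5 clock genes with a description, 1 was called higher and 2 lower, with a median log2 fold change of −0.17 against 0.04 over all genes. The pseudo-response regulator PRR7 (Sevir.2G456400) had 49.5, 50.8, 48.5 and 60.5 CPM at ctrl_0h and 64.4, 97.1, 66.2 and 127 CPM at ctrl_1h (1.86-fold, log2 fold change 0.90, SE 0.19, adjusted p = 0.00376). The ctrl_1h libraries all lay above those of ctrl_0h, A and C by a small margin. Without ctrl_1h D the log2 fold change was 0.58 and the adjusted p 0.0602. The PRR7 median was 78.9 CPM at ctrl_2h and 117 CPM at ctrl_4h.

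The 2 lower clock genes were those closest to CDF2, a cycling DOF factor. Sevir.5G052000 had 33.7 to 43.6 CPM at ctrl_0h and 20.9, 21.8, 23.3 and 12.7 CPM at ctrl_1h (log2 fold change −0.89, SE 0.25, adjusted p = 0.0256), followed by 10.7 to 26.5 CPM at ctrl_2h and 1.04 to 1.93 CPM at ctrl_4h. The other, Sevir.9G529800, had 102 to 116 CPM at ctrl_0h and 66.0, 76.5 and 60.2 CPM in ctrl_1h A to C but 7.70 CPM in D (log2 fold change −0.93, SE 0.29, adjusted p = 0.0495). Neither was called without ctrl_1h D, where the log2 fold change of the latter was −0.62, and the latter also lost its call with C and D summed (adjusted p = 0.0826). The homologues of CDF3 (Sevir.2G449300, log2 fold change −0.17, SE 0.19, adjusted p = 0.647) and of REVEILLE 2 (Sevir.4G300400, log2 fold change −0.17, SE 0.20, adjusted p = 0.662) were not called.

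Sevir.3G419300, closest to the RNA-binding protein GRP8 of Arabidopsis, whose transcript follows the clock there, is among the abundant genes of the leaf. It had 6360.2, 6561, 5925 and 5943 CPM at ctrl_0h and 7940, 8885, 9492 and 6840.3 CPM at ctrl_1h (1.44-fold, log2 fold change 0.53, SE 0.12, adjusted p = 0.00687). The groups did not overlap, and D was here the lowest of ctrl_1h. The gene was called in all 3 fits, and its median was 11171 CPM at ctrl_2h and 16239.5 CPM at ctrl_4h.

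Among 27 light-signalling genes 2 were higher and 1 lower, with a median log2 fold change of −0.08. The 2 higher genes were those closest to HY5, a bZIP factor that promotes light-driven development in Arabidopsis. Sevir.4G234900 rose from 11.5, 10.1, 7.03 and 8.72 CPM to 21.5, 21.8, 19.3 and 22.0 CPM (2.37-fold, log2 fold change 1.24, SE 0.23, adjusted p = 0.001). The 4 ctrl_1h libraries were close together here, D included. Sevir.5G119500 rose from 22.9 to 28.8 CPM at ctrl_0h to 45.4, 44.4, 46.4 and 53.5 CPM at ctrl_1h (1.95-fold, log2 fold change 0.96, SE 0.20, adjusted p = 0.00396). The medians of these genes at ctrl_2h were 11.1 and 20.2 CPM, near those of ctrl_0h, and after 1 h of high light they were 104 and 97.8 CPM. The gene that fell, Sevir.1G314800, encodes a B-box zinc finger protein with a CCT domain, of a family that includes CONSTANS. It had 6.54 to 8.44 CPM at ctrl_0h and 1.93, 2.65, 2.02 and 1.93 CPM at ctrl_1h (log2 fold change −1.69, SE 0.39, adjusted p = 0.00779), and was at a median of 7.28 CPM at ctrl_2h. All 3 genes were called in all 3 fits, and Sevir.4G234900 also with both changes at once.

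Genes of the antenna of photosystem II (LHCII), the proteins that bind most chlorophyll and pass on its energy, were higher where they were called. Of 9 members 2 were called higher and none lower by edgeR, DESeq2 called 1 lower as well, and 8 had a positive log2 fold change (median 0.49). The summed level of the list was between 52068 and 62951 CPM at ctrl_0h and between 66215 and 94232 CPM at ctrl_1h, with the highest value in D. Sevir.3G146000 (LHCB1/2/3) had 837, 1263, 1106 and 1096 CPM at ctrl_0h and 3855, 3096, 2549 and 3487 CPM at ctrl_1h (3.29-fold, log2 fold change 1.72, SE 0.33, adjusted p = 0.00173). Here D lay within the range of the other ctrl_1h libraries, and the call held with both changes at once. Its median rose on to 4187 CPM at ctrl_2h and 8066 CPM at ctrl_4h. Sevir.2G310200 (LHCb1/2/3) went from 16794, 19430.2, 15535 and 15563 CPM to 29034, 27428, 23961 and 41321 CPM (1.99-fold, log2 fold change 0.99, SE 0.21, adjusted p = 0.00376), called in all 3 fits. LHCB proteins are a family of similar copies among which the authors' counting could split reads, so the level of each gene is uncertain. How alike these genes are was not measured here.

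In photosystem II itself, 1 of 9 tested genes of the complex was called. PsbP (Sevir.4G216200), a subunit of the oxygen-evolving complex, had 10246 to 11866 CPM at ctrl_0h and 12756, 13400.4, 13709 and 20442 CPM at ctrl_1h (log2 fold change 0.59, SE 0.18, adjusted p = 0.0415), and was called neither without ctrl_1h D, at a log2 fold change of 0.31, nor with C and D summed (adjusted p = 0.0948). Of 41 assembly and repair genes 3 were higher and 1 lower. PDI6 (Sevir.8G068800), a protein disulfide isomerase, rose from 6.75, 5.86, 5.62 and 2.72 CPM to 18.4, 17.9, 14.1 and 32.0 CPM (4.10-fold, log2 fold change 2.04, SE 0.35, adjusted p = 0.000545). Its groups did not overlap, the call held with both changes at once, and its median reached 122 CPM at ctrl_4h. The other 3 changed less and in just 1 of the 3 fits. These were LPA2 (Sevir.1G102700, log2 fold change 0.70), an assembly factor, and the copies of HCF173, a factor for translation of the D1 protein in Arabidopsis, of which HCF173_A (Sevir.1G091500) rose (0.51) and HCF173_B (Sevir.4G283600) fell (−0.46). None of 21 photosystem I genes and none of 4 ATP synthase genes was called by edgeR. At an unadjusted p under 0.05, 5 photosystem I genes were higher and 1 lower, and no ATP synthase gene was.

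The NDH complex of the chloroplast, which feeds electrons from ferredoxin back to the plastoquinone pool, had 2 of 32 genes higher and 2 lower. NDF5 (Sevir.9G091100) rose from 11.8, 15.0, 13.4 and 13.6 CPM to 31.6, 36.8, 26.8 and 39.7 CPM (2.73-fold, log2 fold change 1.45, SE 0.22, adjusted p = 0.000162). It was called under all alternatives tried, with a highest adjusted p of 0.0409, and went on to a median of 40.3 CPM at ctrl_2h and 135 CPM at ctrl_4h. NDF2 (Sevir.9G538500) rose by 0.79 (adjusted p = 0.0253), and NdhT (Sevir.8G098400, −0.62, adjusted p = 0.0357) and NdhN (Sevir.5G409700, −0.60, adjusted p = 0.0486) fell on the log2 scale. None of them was called without ctrl_1h D, and NdhT and NdhN lost their calls with C and D summed too (adjusted p = 0.0521 for NdhT). Among 12 cytochrome b6f genes the assembly factors CCB4 (Sevir.7G275850, log2 fold change 0.80) and CcdA (Sevir.7G326600, 0.83) were higher and CCB1 (Sevir.8G148400, −0.49) lower, at adjusted p-values of 0.0328, 0.0440 and 0.0307, and all lost their calls when C and D were summed.

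Genes of the plastid's own ribosomes were higher in 3 of 7 cases and lower in none, beside 6.48% and 3.58% of tested genes with a description. Sevir.9G004800, described as related to a 30S ribosomal protein, rose from 6.19, 11.7, 4.22 and 14.2 CPM to 14.3, 25.0, 31.7 and 25.0 CPM (2.83-fold, log2 fold change 1.5, SE 0.27, adjusted p = 0.000928). The lowest ctrl_1h library, A, lay just above the highest of ctrl_0h, D. The level was 85.9 CPM at ctrl_2h and 239.8 CPM at ctrl_4h as medians, and the call held in the fit without ctrl_0h C and D and ctrl_1h D. The 50S protein L21 (Sevir.1G012300) rose from 54.5 to 66.6 CPM to 102 to 127 CPM (2.00-fold, log2 fold change 1.00, SE 0.19, adjusted p = 0.00162), in all 3 fits, and L3 (Sevir.1G092500) rose by 0.79 on the log2 scale (adjusted p = 0.0229) with all libraries alone. Of 44 genes for cytosolic ribosomal proteins 1 was called, Sevir.2G212400. It was lower (log2 fold change −0.74, adjusted p = 0.0453, not called with C and D summed), and its Arabidopsis homologue is described as a protein of unknown function. The 2 lists were not tested against each other.

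Of 13 genes of tetrapyrrole synthesis, the pathway to chlorophyll and haem, 3 were higher and none lower. HEMC (Sevir.1G072500), which joins porphobilinogen units, rose by 0.89 (SE 0.21, adjusted p = 0.00981), a protochlorophyllide oxidoreductase (PORA, Sevir.9G204800) by 0.75 (SE 0.20, adjusted p = 0.0221) and a coproporphyrinogen oxidase (Sevir.7G244300) by 0.72 (SE 0.20, adjusted p = 0.0265) on the log2 scale. PORA had 522 to 662 CPM at ctrl_0h and 703 to 1209 CPM at ctrl_1h, without overlap, and a median of 1606 CPM at ctrl_4h. None of the 3 was called without ctrl_1h D, and the coproporphyrinogen oxidase lost its call with C and D summed as well (adjusted p = 0.0811).

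**Figure D4:**
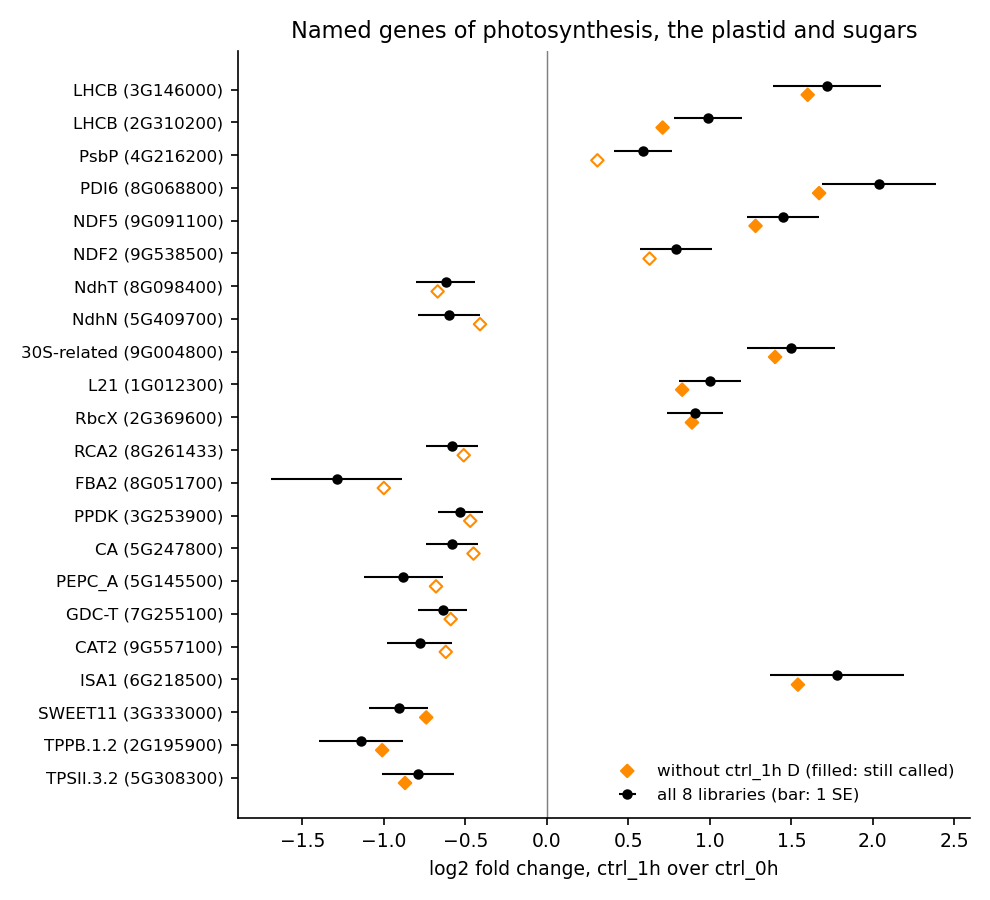
log2 fold change of ctrl_1h over ctrl_0h for 22 named genes of photosynthesis, the plastid and sugar metabolism, with all 8 libraries (black, bars of 1 SE) and without ctrl_1h D (diamonds, filled where the gene is still called). Most estimates move toward 0 without ctrl_1h D, and NDF5, the 30S-related gene and LHCB 3G146000 remain well above 0.

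Genes of C4 carbon metabolism that were called were lower. Of 16 tested members 3 were lower and none was higher, beside 4.58% and 5.07% of the tested genes of the pathway table. With ctrl_1h D included, 14 had a negative log2 fold change (median −0.28). PPDK (Sevir.3G253900), which regenerates the CO2 acceptor PEP, had 12646, 17349, 15949 and 15869 CPM at ctrl_0h and 9849.7, 12769.8, 9889.6 and 7321 CPM at ctrl_1h (log2 fold change −0.53, SE 0.14, adjusted p = 0.0157). Its ranges overlapped slightly, between ctrl_0h A and ctrl_1h B. Carbonic anhydrase (CA, Sevir.5G247800) had 7097 to 9677 CPM and then 6627, 5945, 6247 and 3276 CPM (log2 fold change −0.58, SE 0.16, adjusted p = 0.0221), and a PEP carboxylase gene of low level, PEPC_A (Sevir.5G145500), fell by 0.88 on the log2 scale (SE 0.24, adjusted p = 0.0207). None of the 3 was called without ctrl_1h D, where the adjusted p of PPDK was 0.0648. With C and D summed, CA (adjusted p = 0.0669) and PEPC_A (0.0570) were not called either. At ctrl_4h the medians of PPDK and CA were 6432 and 3393 CPM.

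In the Calvin-Benson cycle 1 of 29 genes was higher and 3 were lower. RbcX (Sevir.2G369600), a chaperone for the assembly of Rubisco, rose from 17.2, 17.6, 21.1 and 19.1 CPM to 38.8, 36.2, 25.1 and 28.5 CPM (1.88-fold, log2 fold change 0.91, SE 0.17, adjusted p = 0.00154). A and B were the highest of ctrl_1h here, the groups did not overlap, and the call held without ctrl_0h C and D and ctrl_1h D. Lower were Rubisco activase RCA2 (Sevir.8G261433, log2 fold change −0.58, adjusted p = 0.0264), the Rubisco assembly factor RAF2 (Sevir.7G340300, −0.56, adjusted p = 0.0281) and the aldolase FBA2 (Sevir.8G051700, −1.29, adjusted p = 0.0437), all with all libraries alone. FBA2 had 2679.5 to 4805 CPM at ctrl_0h and 2178, 2434, 1244 and 356 CPM at ctrl_1h, so that D was far below the rest.

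Photorespiration, which recovers carbon from the oxygenation product of Rubisco, had 1 of 22 genes higher and 3 lower. A serine hydroxymethyltransferase (GLYA/SHMT, Sevir.3G305600) rose by 0.80 on the log2 scale (adjusted p = 0.0105). Lower were the T-protein of glycine decarboxylase (GDC-T, Sevir.7G255100, log2 fold change −0.64, adjusted p = 0.00986), hydroxypyruvate reductase HPR1 (Sevir.1G001200, −0.73, adjusted p = 0.0218) and glycolate oxidase GOX1_B (Sevir.2G039000, −1.64, adjusted p = 0.0220). GOX1_B had 92.2 and 124 CPM in ctrl_0h A and B but 23.2 and 30.0 CPM in C and D, within or near the 16.2 to 23.9 CPM of ctrl_1h, and without ctrl_0h B its adjusted p was 0.111. Catalase CAT2 (Sevir.9G557100), which removes the hydrogen peroxide of photorespiration, fell from 549 to 824 CPM to 386, 516, 436 and 203 CPM (log2 fold change −0.78, SE 0.20, adjusted p = 0.0138), and the ferredoxin-NADP reductase FNR2 (Sevir.1G221100) by 0.94 (adjusted p = 0.0396). None of these 6 was called without ctrl_1h D, and the rise of GLYA/SHMT was then 0.49. With C and D summed, HPR1 (adjusted p = 0.0689) and FNR2 (0.0883) lost their calls too.

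The markers of the 2 photosynthetic cell types gave values to set beside these falls. Of 5 mesophyll markers 1, CA, was called lower. At an unadjusted p under 0.05, 3 of the 5 were lower and none was higher. The plastid carriers DIT1 (Sevir.3G366500), with 1685, 1759, 1581 and 1624 CPM at ctrl_0h and 1903, 1745, 1537 and 1853 CPM at ctrl_1h (log2 fold change 0.20, adjusted p = 0.533), and BASS2 (Sevir.5G250900, −0.21, adjusted p = 0.377) were not called, nor was NADP-MDH (Sevir.2G142300, −0.70, adjusted p = 0.0706). The level of DIT1 in ctrl_1h D lay within the range of the other 7 libraries. The summed level of the 5 was between 20601 and 28979.8 CPM at ctrl_0h and was 21552, 16962, 14109 and 7685 CPM in ctrl_1h A to D. PEP carboxylase (PEPC, Sevir.4G143500), the defining mesophyll enzyme, had 8864 to 14090.2 CPM at ctrl_0h and 9554, 6173, 3809.8 and 602 CPM at ctrl_1h (log2 fold change −1.18, SE 0.42, adjusted p = 0.0840). None of 5 bundle sheath markers was called by edgeR or passed an unadjusted p of 0.05, with log2 fold changes between −0.17 for NADP-ME (Sevir.5G132500) and 0.30 for RBCS_C (Sevir.3G276100), and their sum was 12458 to 16387 CPM at ctrl_0h and 10933 to 14398 CPM at ctrl_1h. The part of cell type shares in the falls of mesophyll genes was not tested.

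Of 9 SWEET genes, which carry sugars across membranes, 1 was called, and it was lower. SWEET11 (Sevir.3G333000), a sucrose exporter that serves phloem loading, fell from 997, 1036, 1156 and 1156 CPM to 536, 622, 751 and 267 CPM (1.88-fold lower, log2 fold change −0.91, SE 0.18, adjusted p = 0.00313). The groups did not overlap with or without D, and the gene was called in all 3 fits. Its median was 737 CPM at ctrl_2h and, after 1 h of high light, 250.2 CPM.

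Among 13 trehalose genes 2 were lower and none higher. These make and break trehalose 6-phosphate, a signal of sucrose supply. The phosphatase gene TPPB.1.2 (Sevir.2G195900) had 37.7, 136, 47.8 and 40.3 CPM at ctrl_0h and 34.4, 32.1, 29.1 and 15.8 CPM at ctrl_1h (log2 fold change −1.14, SE 0.26, adjusted p = 0.00731). ctrl_0h B was far above the other libraries, and without it the log2 fold change was −0.48 and the adjusted p 0.155. The class II synthase gene TPSII.3.2 (Sevir.5G308300) fell from 21.9 to 32.7 CPM to 11.8 to 15.8 CPM (log2 fold change −0.79, SE 0.22, adjusted p = 0.0228), in all 3 fits, but it lost the call without ctrl_0h D (adjusted p = 0.0921) or without ctrl_1h B (0.0692). SnRK1α1 (Sevir.3G173000), the catalytic subunit of a kinase active when sugar is scarce, was 2.27-fold lower (log2 fold change −1.18, SE 0.26, adjusted p = 0.00489), with 12.4 to 18.5 CPM and then 3.85 to 8.06 CPM, and was called in all 3 fits as the 1 member of 10.

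Starch genes moved singly, with 1 of 16 synthesis genes higher and, of 20 degradation genes, 1 higher and 1 lower. The isoamylase ISA1 (Sevir.6G218500), which trims branches during starch synthesis, rose from 3.66, 3.58, 0.703 and 1.63 CPM to 8.53, 6.76, 8.06 and 11.9 CPM (3.45-fold, log2 fold change 1.78, SE 0.41, adjusted p = 0.00726) and to a median of 36.8 CPM at ctrl_4h. The phosphoglucan phosphatase SEX4 (Sevir.9G578000) rose by 0.65 on the log2 scale (SE 0.16, adjusted p = 0.0118), and both were called in all 3 fits, SEX4 narrowly losing its call without ctrl_0h C (adjusted p = 0.0530) or D (0.0520). BAM9 (Sevir.9G407700), of the β-amylase family, had 27.0, 16.6, 24.6 and 26.2 CPM at ctrl_0h and 7.15, 3.53, 12.7 and 6.55 CPM at ctrl_1h (log2 fold change −1.54, SE 0.47, adjusted p = 0.0434). Its groups did not overlap and its median at ctrl_4h was 0.372 CPM, but it was called with all libraries alone.

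Of 10 genes that the study lists under abscisic acid synthesis 2 were lower. The gene listed as NCED1 (Sevir.3G426300), whose Arabidopsis homologue is described as carotenoid cleavage dioxygenase 1, fell from 129.6, 122, 154 and 149 CPM to 77.3, 81.8, 76.9 and 22.3 CPM (2.01-fold lower, log2 fold change −1.01, SE 0.23, adjusted p = 0.00752), in all 3 fits. ABA2 (Sevir.9G041200), a dehydrogenase of the pathway, fell by 1.38 (SE 0.37, adjusted p = 0.0194), and was not called without ctrl_1h D. None of 21 genes of abscisic acid signalling was called by edgeR, and 1 was higher and 1 lower at an unadjusted p under 0.05.

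All called members of 3 lists of redox enzymes were higher, but these are not all the redox lists of the study. Of 2 tested catalases 1, CAT2, was lower (log2 fold change −0.78), and CDSP32, listed with the monodehydroascorbate reductases, was higher (0.50). Shares of 5.07% higher and 4.58% lower were called among all tested genes of the study's pathways. Of 30 tested glutathione S-transferases 3 were higher, of 31 peroxidases 3 and of 8 peroxiredoxins 3, and none of these was lower by edgeR, although DESeq2 called 1 peroxiredoxin lower. GSTU18 (Sevir.9G350800), a transferase of the tau class that conjugates glutathione to reactive compounds, had 140.3, 109, 103 and 101 CPM at ctrl_0h and 331, 317, 237 and 635 CPM at ctrl_1h (3.72-fold, log2 fold change 1.89, SE 0.29, adjusted p = 0.000162). D was the highest, the other 3 lay well above ctrl_0h, and the call held with both changes at once. Its median fell back to 103 CPM at ctrl_2h, while it was 1825 CPM after 1 h of high light and 395 CPM after 1 h of high temperature. Another member, Sevir.5G448600, rose by 2.81 (SE 0.54, adjusted p = 0.00164) in all 3 fits, but its ctrl_1h values of 21.5, 60.9, 8.06 and 89.0 CPM spread widely, and C lay within the 3.81 to 13.3 CPM of ctrl_0h.

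The peroxidases that rose were Sevir.1G023300 (log2 fold change 1.19, adjusted p = 0.00161, in all 3 fits), Sevir.2G001400 (1.07, adjusted p = 0.0135) and Sevir.7G136600 (1.24, adjusted p = 0.0236). The second lost its call without ctrl_1h D and the last with C and D summed. Peroxiredoxins, which reduce peroxides, had a median log2 fold change of 0.67 over the 8 members. The 2-Cys peroxiredoxin 2C9B (Sevir.1G187600) had 598 to 722 CPM at ctrl_0h and 944, 1080.3, 819 and 1824 CPM at ctrl_1h (2.02-fold, log2 fold change 1.01, SE 0.21, adjusted p = 0.00423). PRXQ (Sevir.4G038900) rose by 0.84 (adjusted p = 0.0289) and PRXIIE (Sevir.4G219300) by 0.64 (adjusted p = 0.0497) on the log2 scale. None of these 3 was called without ctrl_1h D, where the log2 fold changes were 0.61, 0.52 and 0.35. PRXQ (adjusted p = 0.0960) and PRXIIE (0.104) were not called with C and D summed either. Among 7 ascorbate peroxidases and 7 superoxide dismutases no gene was called, and none passed an unadjusted p of 0.05.

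Of 59 large heat shock proteins 4 were higher and none lower, beside 5.07% and 4.58% of the tested genes of the pathway table. Among the 4 heat shock proteins, 3 are described as chaperones of the kind found in the endoplasmic reticulum. HSP90.7 (Sevir.4G293700), an endoplasmin, rose from 73.4, 40.4, 33.0 and 50.1 CPM to 170.3, 89.4, 95.6 and 184 CPM (2.97-fold, log2 fold change 1.57, SE 0.31, adjusted p = 0.00270). The groups did not overlap, although B and C lay near ctrl_0h A. An HSP70 closest to BIP (Sevir.1G116600) had 8.44, 6.51, 2.11 and 7.63 CPM and then 35.5, 22.1, 7.20 and 27.0 CPM (3.79-fold, log2 fold change 1.92, SE 0.44, adjusted p = 0.00726), with C overlapping ctrl_0h. Both were called in all 3 fits. An HSP70 of the HYOU1 kind (Sevir.1G298600) rose by 1.03 (adjusted p = 0.0274), and the remaining member, HSP70-1 (Sevir.9G032700), by 0.87 (adjusted p = 0.0386), both with all libraries alone.

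For HSP90.7 and the BIP-like gene the medians at ctrl_2h were 71.2 and 9.12 CPM, and after 1 h at high temperature they were 969 and 199.6 CPM, well above the ctrl_1h range. Of 29 small heat shock proteins 1 was higher (Sevir.4G078800, log2 fold change 1.33, adjusted p = 0.0488, and 0.67 without ctrl_1h D) and 1 lower (Sevir.3G193900, −0.48, adjusted p = 0.0495), again with all libraries alone. None of 10 heat shock transcription factors was called by edgeR, and 1 was lower at an unadjusted p under 0.05.

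Outside these pathways, 3 of 14 genes found by histone keywords were higher and none lower. The *Setaria* descriptions of all 3 name the histone H1 and H5 family. The Arabidopsis homologue of Sevir.9G118000 is described as high mobility group A. Those of Sevir.2G063400 and Sevir.9G053000 are described as winged-helix DNA-binding transcription factors, so whether the 3 are linker histones is not settled here. Sevir.9G118000, closest to HMGA, rose from 22.3 to 30.3 CPM to 46.5, 41.5, 51.3 and 77.4 CPM (2.24-fold, log2 fold change 1.17, SE 0.24, adjusted p = 0.00330), and Sevir.2G063400 rose by 1.37 (SE 0.31, adjusted p = 0.00652), from 16.9 to 21.9 CPM to 36.5 to 53.9 CPM. Both were called in all 3 fits, did not overlap between groups and had ctrl_4h medians of 87.5 and 77.0 CPM. The third, Sevir.9G053000, rose by 1.52 (adjusted p = 0.0131) and was not called without ctrl_1h D. The summed level of all 14 was 1352 to 1372 CPM at ctrl_0h and 1228, 1495, 1489 and 2219 CPM at ctrl_1h, so the list as a whole stood higher in D alone by a wide margin.

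Genes of the epidermis and wall changed singly. KAT1 (Sevir.1G020100), a potassium channel of guard cells in Arabidopsis, fell from 15.7, 12.0, 22.5 and 14.2 CPM to 5.50, 6.18, 10.7 and 2.70 CPM (2.32-fold lower, log2 fold change −1.22, SE 0.30, adjusted p = 0.0121), and KCS12 (Sevir.1G368400), of the enzymes that elongate fatty acids for waxes, fell by 1.22 (adjusted p = 0.0154) as the 1 called member of 11 wax and cutin genes. Neither was called without ctrl_1h D. The xyloglucan-remodelling enzyme XTH23 (Sevir.4G258800) rose by 1.43 (SE 0.37, adjusted p = 0.0154), with 119, 231, 66.8 and 68.7 CPM at ctrl_0h and 262, 262, 507 and 205 CPM at ctrl_1h, where D was the lowest. It kept its call without D and lost it with C and D summed. The auxin response factor ARF1 (Sevir.1G202700) rose by 0.65 (adjusted p = 0.00747) and the AP2 factor closest to TINY2 (Sevir.1G027700) by 0.81 (adjusted p = 0.0339), neither called without ctrl_1h D, where the latter was at 0.47, and the latter also lost its call with C and D summed (adjusted p = 0.0720).

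Among the remaining lists, β-carotene hydroxylase (CrtR-B, Sevir.7G220800) rose by 0.88 (adjusted p = 0.0142) and kept its call without ctrl_1h D, but lost it with C and D summed and without ctrl_1h A, where the log2 fold change was 0.58 (adjusted p = 0.0971). The fibrillin FBN7a/FBN7b (Sevir.3G030100) rose by 0.62 (adjusted p = 0.0271), a glutathione S-transferase of the phi class (GSTF6, Sevir.9G554200) by 0.78 (adjusted p = 0.0386) and the thioredoxin-like CDSP32 (Sevir.2G323400) by 0.50 (adjusted p = 0.0192), or 0.30 without ctrl_1h D, none of them called without that library. GSTF6 (adjusted p = 0.0712) and CDSP32 (0.0627) also lost their calls with C and D summed. Lower were ζ-carotene desaturase (ZDS, Sevir.2G079900, log2 fold change −0.50, adjusted p = 0.0385), FRR1 (Sevir.7G091800, −0.52, adjusted p = 0.0153), the phosphatase of state transitions TAP38 (Sevir.5G198100, −0.54, adjusted p = 0.0344), the stress-enhanced protein SEP2 (Sevir.7G268700, −0.63, adjusted p = 0.0404) and the sodium:hydrogen antiporter NHD1 (Sevir.2G147400, −0.64, adjusted p = 0.0194), none of which was called without ctrl_1h D. ZDS, TAP38 and SEP2 were not called with C and D summed either (adjusted p = 0.0689, 0.0669 and 0.102).

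**Figure D5:**
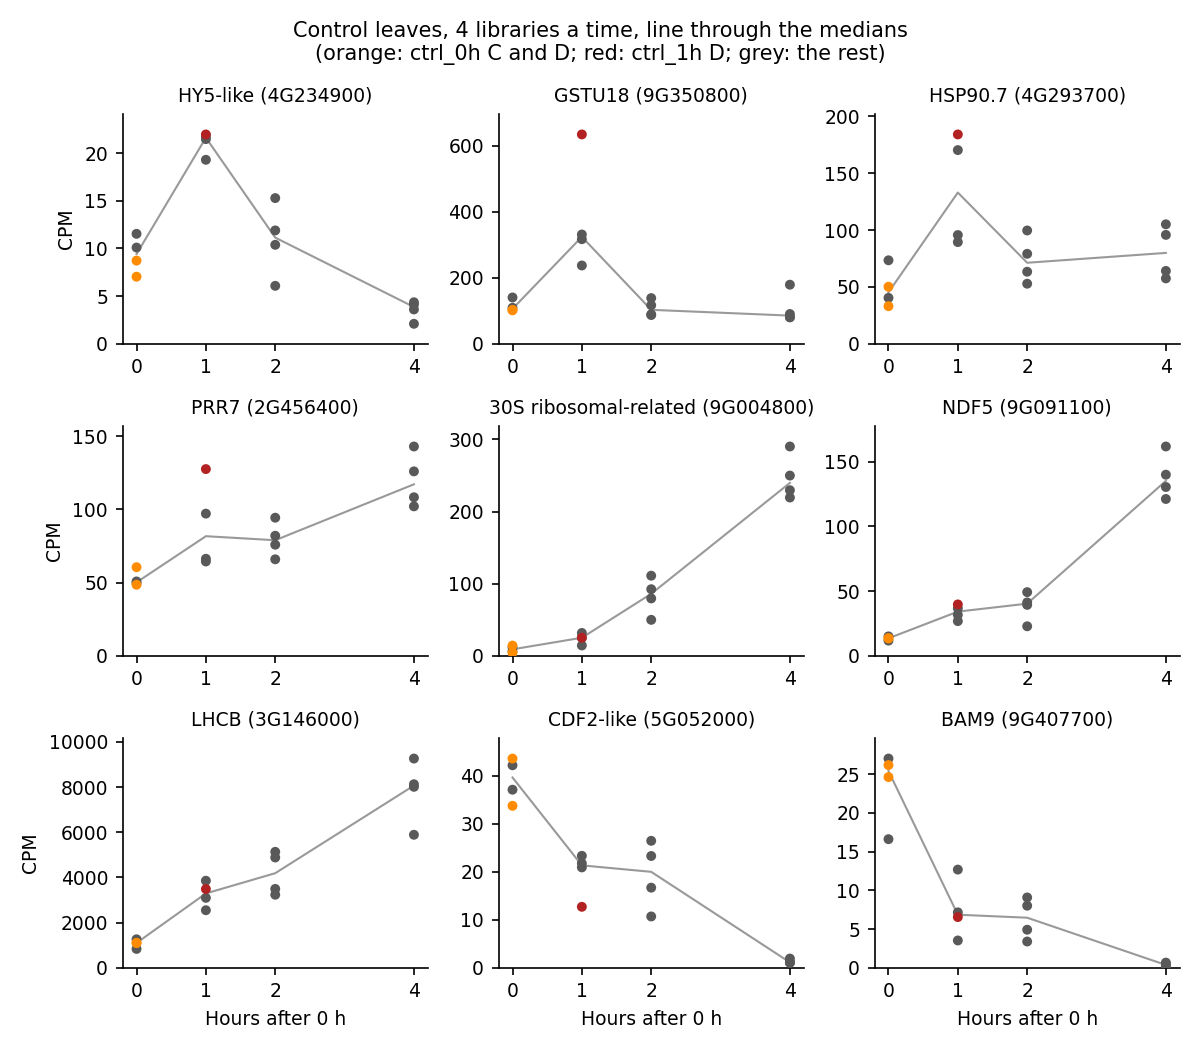
CPM of 9 named genes in each control library at 0, 1, 2 and 4 h, with a line through the medians of 4 libraries and colours marking ctrl_0h C and D and ctrl_1h D. HY5-like and GSTU18 were high at 1 h and back near their 0 h level at 2 h, the median of HSP90.7 came part of the way back, whereas the 30S-related gene, NDF5 and LHCB were higher at 4 h than at 1 h and CDF2-like and BAM9 were lower.

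The later control libraries show 2 courses among the named genes, given as levels without a test, since these genes were chosen on ctrl_0h and ctrl_1h. In some, the ctrl_2h libraries were back below those of ctrl_1h, as for GSTU18, with 87.1 to 138 CPM at ctrl_2h against 237 to 635 CPM at ctrl_1h, and for the HY5 homologue Sevir.4G234900, with 6.07 to 15.3 CPM against 19.3 to 22.0 CPM. In others, ctrl_4h lay beyond ctrl_1h, as for NDF5, with 121 to 162 CPM at ctrl_4h against 26.8 to 39.7 CPM at ctrl_1h, for PDI6 with 95.6 to 132 CPM against 14.1 to 32.0 CPM, for the 30S-related gene Sevir.9G004800 with 219 to 290.2 CPM against 14.3 to 31.7 CPM, and, downward, for the CDF2 homologue Sevir.5G052000 with 1.04 to 1.93 CPM against 12.7 to 23.3 CPM. The genes of this paragraph are examples picked from the named genes, so the absence of overlap in the ranges compared is no finding.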

How the data were processed

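Reads of QuantSeq 3′ FWD libraries were trimmed by the authors with Trim Galore 0.6.2 and quantified with Salmon 1.1.0 against the second release of the *S. viridis* transcriptome, and tximport gave gene-level values. What the authors deposited as counts are these expected counts after rounding, and all tests used them. The deposited TPM files are, by their values, the count over the library total, so they are CPM and contain no gene length. They gave the levels of single libraries. 1 count column of another condition, whose header and values disagree, was not used, and 4 columns were used for their condition only. PCR reads without molecular identifiers are not independent molecules, so depth sets a lower limit on the error.

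Counts were tested in R 4.3.3 with edgeR 4.0.16 (TMM, glmQLFit and glmQLFTest, 1 term per condition), after tests on simulated data. SE is the log2 fold change over the square root of F. limma 3.58.1 and DESeq2 1.42.0 were alternatives. Named genes are the 10 largest rises and falls without overlap and with at least 10 counts in each library of the higher group, all clock genes, up to 4 called members a list by adjusted p, the 5 most abundant called genes and cell type markers. Of 112 such genes 101 were called, and 13 without a description are counted but not printed. The members and lists were chosen with earlier results of these data known. Gene names came from the supplementary tables of the study, and no sequence was used.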

Additional observations from a re-analysis of the deposited data

Results flagged for a closer look

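In 198 groups of 4 CPM values of the genes named above and 10 groups of 4 library measures, 13 had 1 value far from the other 3 by Dixon's test, which chance gives in about 1 of 20 groups. In ctrl_1h D these were low CPM of the gene listed as NCED1 (Sevir.3G426300, 22.3) and high CPM of CDSP32 (Sevir.2G323400, 392) and PsbP (Sevir.4G216200, 20442). In other ctrl_1h libraries they were the CDF3 homologue Sevir.2G449300 in A (53.9 CPM) and the B-box gene Sevir.1G314800 in B (2.65 CPM).

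At ctrl_0h the low values were those of NdhN (Sevir.5G409700, 411 CPM) and BASS2, a pyruvate carrier (Sevir.5G250900, 2893 CPM), in A, FRR1 (Sevir.7G091800, 265 CPM) in B and LPA2 (Sevir.1G102700, 9.84 CPM) in C. The high values were those of NdhT (Sevir.8G098400, 304 CPM) and TPPB.1.2 (Sevir.2G195900, 136 CPM) in B and NDF2 (Sevir.9G538500, 68.9 CPM) in C. The 10 most abundant genes took 15.8% of the counts in ctrl_0h A, above the other ctrl_0h libraries.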

How the results depend on the processing

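The direction of the called genes was steadier than their number. Against 561 genes higher and 296 lower, the counts were 630 and 420 with DESeq2, 528 and 317 with RLE factors, 349 and 325 with library totals, 548 and 576 with limma on log2(TPM + 1), 452 and 591 on log2(TPM + 5), 506 and 251 without a filter, 552 and 346 with a stricter filter, 501 and 334 with the second index as covariate, 436 and 240 with the 16 control libraries, 187 and 79 with the 8 libraries only, 134 and 48 with AK2941 libraries only, and 321 and 133 when at least 2-fold was required. With ctrl_0h C and D summed they were 339 and 165, with both left out 70 and 36, with C and D summed and ctrl_1h D left out 63 and 23, and with all 3 left out 31 and 10. The last pair of alternatives was chosen after seeing the data. With 1 library left out in turn they lay between 167 and 652 and between 82 and 325. With a replicate block they were 232 and 113 over the 8 libraries and 397 and 232 over the 16 control libraries. The labels do not say what a letter marks. Between libraries of the same letter the correlations of deviations were −0.0101 (A), 0.165 (B), 0.0888 (C) and −0.0554 (D), and not every library correlated best with its own letter. With 4 libraries a group these values cannot decide whether letters share a batch or day, so the main fit used no pairing. Of the 101 named genes called, 97 kept the call with RLE factors, 79 with library totals, 59 with C and D summed, 48 with the block over 8 libraries, 46 with the 8 libraries only, 38 without ctrl_1h D, 17 with AK2941 libraries only, 13 without C and D, 12 with these summed and ctrl_1h D left out and 7 without the 3. Signs turned only in genes that were not called. For PRK (Sevir.1G289200, −0.01) the log2 fold change was 0.14 without the 3 libraries, 0.21 without C and D, 0.05 with them summed and between −0.12 and 0.07 with 1 library left out. For NADP-ME it was 0.13 and 0.12, and for the REVEILLE 2 homologue 0.13 and 0.05, without the 3 libraries and without C and D. For RBCS_A (Sevir.3G276200, 0.02) it was −0.01 with AK2941 libraries, with the 8 libraries and without ctrl_0h A, ctrl_0h B or ctrl_1h A, −0.00 with DESeq2, RLE factors and the stricter filter, −0.09 with library totals, −0.10 with limma at either pseudocount, −0.02 with the block over 8 libraries and −0.04 without ctrl_1h B. The cause of these changes was not tested. At 1422507 counts, 3 counts correspond to 2.11 CPM, so falls of rarer genes in ctrl_0h C were not measurable. Reads were not recovered from the CPM files, since whole reads could not be found in 13 of 40, and promoter motifs were not run.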
